A study of Homo sapiens with 4 samples.

Results

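The genes described here encode the AP-1 transcription factors of the FOS family (FOS, FOSB, FOSL1, FOSL2), the JUN family (JUN, JUNB, JUND), the related factor ATF3 and the small MAF proteins MAFF and MAFG. They were taken as a listed set of 10 genes out of 57820 gene rows in the deposited counts, through the gene symbols of the annotation. All 10 were found and all 10 had enough reads to be tested, among 16468 genes tested in all. Expression was measured by RNA-seq in SY5Y cells, a human neuroblastoma line that the labels call MYCN wild type. The cells were exposed for 12 h to DMSO, the vehicle (2 replicates), or to SGSS05-NS, a covalent inhibitor of the histone H4 lysine methyltransferase SETD8 (2 replicates). The labels give a dose of 3 μM and the name SGSS05-NS, whereas the study calls its inhibitor SGSS05-NS3. The study's figure legends give the labelled dose for these cells and its methods a lower one. Its discussion lists SGSS05-NS among the more active compounds of the series that holds SGSS05-NS3. These compounds, it states, also inhibit other methyltransferases at low micromolar concentrations. The data cover a single cell line, a single compound and a single time point, with no second inhibitor and no untreated cells.

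FOS and JUN proteins are basic leucine zipper (bZIP) factors that bind DNA as dimers. JUN proteins pair with themselves or with FOS proteins, whereas FOS proteins need a partner, and the dimers bind the TPA response element TGACTCA and, with ATF partners, the cAMP response element (CRE) TGACGTCA. Several of these genes are immediate early genes, whose transcription rises within minutes of growth factor, stress or depolarization signals and needs no new protein, and whose transcripts are short-lived. Small MAF proteins lack a transactivation domain and pair with one another, with CNC factors such as NFE2L2, or with BACH proteins.

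The promoter sequences of the genes are shown because the CRE core is the element through which CREB and ATF factors act on several of them. They were read from RefSeq on GRCh38.p14, whereas all gene coordinates given with the expression values are those of the GRCh37 annotation. Each line holds the 130 bases that end just before an annotated transcription start, 5′ to 3′ on the strand of the gene. Capitals mark TGACG, the core of the CRE, or TGACATCA, a variant of the CRE, or for MAFF the full palindrome TGACGTCA. The stretches lie at chr14:75278698-75278827 (plus strand) for FOS, chr19:45467866-45467995 (plus strand) for FOSB, chr2:28392728-28392857 (plus strand) for FOSL2, chr1:58784048-58784177 (minus strand) for JUN, chr1:212565277-212565406 (plus strand) for the upstream start of ATF3, and chr22:38201864-38201993 (plus strand) for the upstream start of MAFF.
FOS: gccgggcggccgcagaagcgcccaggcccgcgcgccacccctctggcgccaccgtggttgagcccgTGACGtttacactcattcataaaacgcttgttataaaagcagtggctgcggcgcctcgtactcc
FOSB: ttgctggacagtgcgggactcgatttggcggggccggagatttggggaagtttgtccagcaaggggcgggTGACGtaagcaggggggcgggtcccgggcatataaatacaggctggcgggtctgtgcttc
FOSL2: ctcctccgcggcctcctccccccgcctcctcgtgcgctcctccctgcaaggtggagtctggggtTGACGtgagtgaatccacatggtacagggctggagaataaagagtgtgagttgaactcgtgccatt
JUN: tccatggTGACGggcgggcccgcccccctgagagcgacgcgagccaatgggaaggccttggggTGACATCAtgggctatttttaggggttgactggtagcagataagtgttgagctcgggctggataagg
ATF3: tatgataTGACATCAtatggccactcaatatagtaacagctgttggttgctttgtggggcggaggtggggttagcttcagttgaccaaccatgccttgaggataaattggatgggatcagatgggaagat
MAFF: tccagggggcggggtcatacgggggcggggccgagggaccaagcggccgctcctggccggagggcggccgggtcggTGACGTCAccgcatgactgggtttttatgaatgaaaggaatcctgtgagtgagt

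Promoter entries matched 9 of the 10 genes, with 11 starts in all because ATF3 and MAFF have 2 starts each. FOSL1 had no entry. In the 250 bases before the start, on either strand, TGACG was found at 7 of the 11 starts (FOS, FOSB, FOSL2, JUN, JUNB, JUND and the upstream start of MAFF) and in 21.2% of the 35116 promoters of the table. The full TGACGTCA, which contains TGACG, was found at 2 starts (JUND and MAFF) and in 1.65% of all promoters. TGACATCA was found at 2 starts, JUN and ATF3, and in 2.37% of promoters. TGACTCA was found at none of the 11 starts and in 4.2% of promoters. TGACNNNGC, which resembles the site bound by small MAF heterodimers, was found at 2 starts (JUND and MAFF) and in 10.9% of promoters, while the heat shock element, the CArG box and the p53 site were found at none, against 0.441%, 1.16% and 0.0171% of promoters. These matches describe letters in a fixed window and were searched with the sequences in view. Bases farther upstream were not searched. The heat shock element, the CArG box and the p53 site are so rare over all promoters that their absence at 11 starts says little.

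The 4 libraries held 21463105 to 25350204 fragments assigned to genes on the sense strand. Between 12.3% and 12.4% of fragments in DMSO and 15.3% to 16.1% in SGSS05-NS overlapped no annotated exon on that strand. This class can hold intronic and antisense fragments as well as those outside genes. The part of this difference in the results was not tested. Adrenergic neuroblastoma markers such as HAND2 and DBH were expressed in every library, but TH, the tyrosine hydroxylase of catecholamine synthesis, had 0 to 2 counts. In CPM, the counts of a gene scaled to a common library size with TMM factors, the summed level of the adrenergic markers was 5262 and 5692 CPM in DMSO and 3303 and 3199 CPM in SGSS05-NS. Of the 14 tested, 10 were called lower and 1 higher by the test and threshold given below. Over all genes tested 8.14% were called lower and 6.37% higher. Among 12 mesenchymal markers only PRRX1 had no count in any library. The 12 summed to 444 and 466 CPM in DMSO and 387 and 364 CPM in SGSS05-NS, and of the 10 tested 1 rose and 1 fell. The 12 markers of other cell types summed to 1.55 and 1.84 CPM in DMSO and 2.66 and 3.997 CPM in SGSS05-NS. KMT5A, the gene of SETD8, stood at 54.6 and 56.8 CPM in DMSO and at 82.8 and 82.9 CPM in SGSS05-NS, a log2 fold change of 0.57 (SE 0.09, edgeR adjusted p = 0.00037) that was no longer called without DMSO replicate 1 (0.54, edgeR adjusted p = 0.0017).

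All 10 genes rose with SGSS05-NS. Changes were tested in edgeR by its quasi-likelihood method. The p-values were adjusted by Benjamini-Hochberg across all 16468 genes, and a gene was called at an adjusted p under 0.001. Of all genes 6.37% were called higher, 8.14% lower and 14.5% in either direction. For each of the 10 genes both treated libraries lay above both DMSO libraries, which held for 37.8% of all genes tested, the reverse holding for 36.9%. FOSB and FOSL1, with few control counts, passed the filter on low counts only through the treated libraries. A call in the other direction was therefore not open to FOSB and FOSL1. The median log2 fold change was 2.89 over the 10 genes and 0.01 over all genes, and 6 of the 10 lay above the range that holds the central 95% of all genes, which ends at 1.91. The 10 genes were chosen with earlier results of these data known, so the comparison with all genes is a description only. The smallest change among the 10 was that of FOSL2 and the largest fitted change that of FOSL1, so the size of the rise differed widely within the set. Since these are bulk RNA measurements, more cells with the transcript and more transcript per cell cannot be told apart, nor can transcription and RNA stability.

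**Figure D1:**
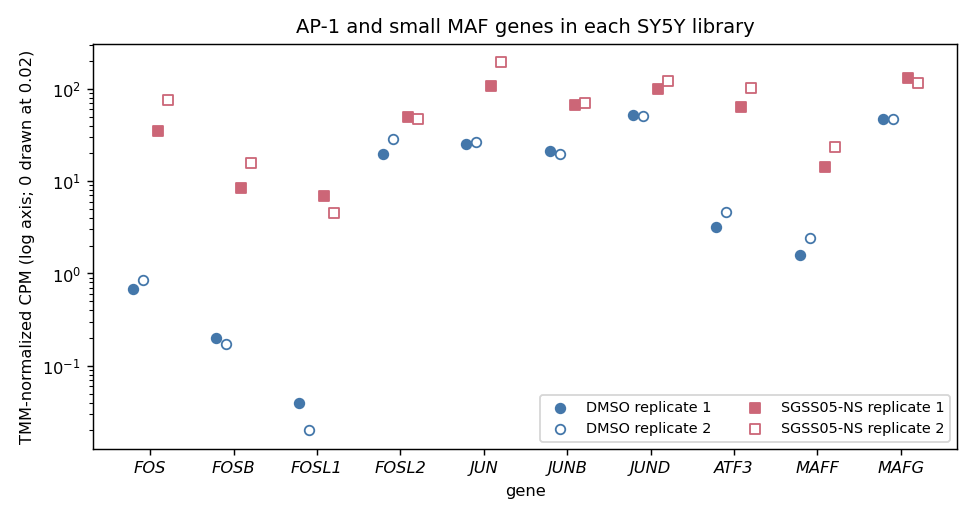
CPM of each of the 10 genes in the 4 libraries (log axis, 1 point per library, a count of 0 drawn at 0.02). For every gene both SGSS05-NS points lie above both DMSO points, with the widest separation for FOSL1, FOS and FOSB and the narrowest for FOSL2 and JUND.

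FOS, FOSB and FOSL1 were near the limit of detection in DMSO and clearly expressed with SGSS05-NS. FOS, the prototype partner of JUN (ENSG00000170345.5, GRCh37 chr14:75745529-75748933, plus strand, 4 exons), had 17 and 20 counts in DMSO and 781 and 1764 counts in SGSS05-NS, or 0.678 and 0.856 CPM against 35.2 and 74.999 CPM. The group means were 0.767 ± 0.126 and 55.1 ± 28.1 CPM (SD, n = 2), and the log2 fold change was 6.16 (SE 0.39, edgeR adjusted p = 3.7e-07). The groups were far apart although the second treated library held 2.13 times the level of the first.

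FOSB, a family member whose short splice form lacks the transactivation domain (ENSG00000125740.9, chr19:45971253-45978437, plus strand, 4 exons), had 5 and 4 counts in DMSO and 185 and 366 counts in SGSS05-NS. Its levels were 0.199 and 0.171 CPM against 8.34 and 15.6 CPM. With so few control counts the ratio of the depth-scaled counts was 64.9, with a 95% exact binomial interval of 33.9 to 143 that covers counting error only. The fitted log2 fold change was 5.97 (SE 0.43, edgeR adjusted p = 1e-06), close to that of FOS.

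FOSL1, which encodes FRA1 and lacks a transactivation domain (ENSG00000175592.4, chr11:65659520-65668044, minus strand, 4 exons), was the only member with a library at 0. It had 1 and 0 counts in DMSO and 152 and 106 counts in SGSS05-NS, or 0.0399 and 0 CPM against 6.85 and 4.51 CPM. The count ratio was 273, with a 95% exact binomial interval of 48.6 to 10843, and the fitted log2 fold change was 7.77 (SE 0.57, edgeR adjusted p = 1.1e-06), a value that depends on the prior count and is imprecise. Fragments on the opposite strand numbered 7 and 6 in DMSO and 12 and 14 in SGSS05-NS, and when both strands were counted together the log2 fold change was 4.37. Unlike FOS and FOSB, FOSL1 was lower in the second treated library than in the first.

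FOSL2 was already expressed in DMSO and rose about as much as JUND. FOSL2, which encodes FRA2 (ENSG00000075426.7, chr2:28615315-28640184, plus strand, 4 exons), had 488 and 664 counts in DMSO and 1086 and 1116 counts in SGSS05-NS. Its levels were 19.4 and 28.4 CPM against 48.9 and 47.4 CPM, group means of 23.9 ± 6.34 and 48.2 ± 1.05 CPM (SD, n = 2). The log2 fold change was 1.01 (SE 0.15, edgeR adjusted p = 2e-04), the smallest of the 10. The treated libraries nearly coincided and both lay above the higher DMSO library.

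All 3 JUN genes, each with a canonical transcript of a single exon, were well expressed in DMSO and rose by different amounts. JUN, the partner in the classical AP-1 dimer (ENSG00000177606.5, chr1:59242517-59249720, minus strand), had 626 and 617 counts in DMSO and 2359 and 4543 counts in SGSS05-NS. In CPM it went from 24.9 and 26.4 to 106 and 193, with group means of 25.7 ± 1.03 and 150 ± 61.4 CPM (SD, n = 2). The log2 fold change of JUN was 2.54 (SE 0.21, edgeR adjusted p = 3.5e-06), and here too the second treated library was higher, by 1.82 times.

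JUNB, a JUN relative that can restrain JUN activity (ENSG00000171223.4, chr19:12902300-12904129, plus strand), had 538 and 458 counts in DMSO and 1495 and 1633 counts in SGSS05-NS, or 21.4 and 19.6 CPM against 67.4 and 69.4 CPM. Its log2 fold change was 1.74 (SE 0.10, edgeR adjusted p = 2.4e-07), and its treated libraries differed by 1.03 times. JUNB overlaps HOOK2 on the opposite strand, and HOOK2 was not called, with a log2 fold change of 0.10.

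JUND, the JUN gene with the steadiest expression in most tissues (ENSG00000130522.4, chr19:18390504-18392432, minus strand), had 1305 and 1194 counts in DMSO and 2184 and 2854 counts in SGSS05-NS. It rose from 52.0 and 51.1 CPM to 98.4 and 121 CPM, a log2 fold change of 1.09 (SE 0.11, edgeR adjusted p = 1.4e-05). The groups did not overlap, and the change was close in size to that of FOSL2.

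ATF3 and MAFF rose strongly from low levels. ATF3, a stress-induced bZIP factor that pairs with JUN proteins and is a known p53 target (ENSG00000162772.12, chr1:212738676-212794119, plus strand), had 79 and 108 counts in DMSO and 1414 and 2427 counts in SGSS05-NS. Its levels were 3.15 and 4.62 CPM against 63.7 and 103 CPM, with group means of 3.89 ± 1.04 and 83.4 ± 27.9 CPM (SD, n = 2). The log2 fold change was 4.43 (SE 0.24, edgeR adjusted p = 1.3e-07), the highest position of the 10 when the genes called higher were ordered by p, at 27 of 1049.

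MAFF, a small MAF gene that is itself inducible (ENSG00000185022.7, chr22:38596774-38612514, plus strand), had 40 and 57 counts in DMSO and 315 and 552 counts in SGSS05-NS, or 1.59 and 2.44 CPM against 14.2 and 23.5 CPM. Its log2 fold change was 3.23 (SE 0.27, edgeR adjusted p = 3.1e-06). MAFG, the more abundant small MAF (ENSG00000197063.6, chr17:79876146-79885611, minus strand), had 1183 and 1108 counts in DMSO and 2916 and 2718 counts in SGSS05-NS. It rose from 47.1 and 47.4 CPM to 131 and 116 CPM, a log2 fold change of 1.38 (SE 0.10, edgeR adjusted p = 1e-06). MAFF and MAFG thus differed from each other both in control level and in size of change, with non-overlapping groups for each.

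**Figure D2:**
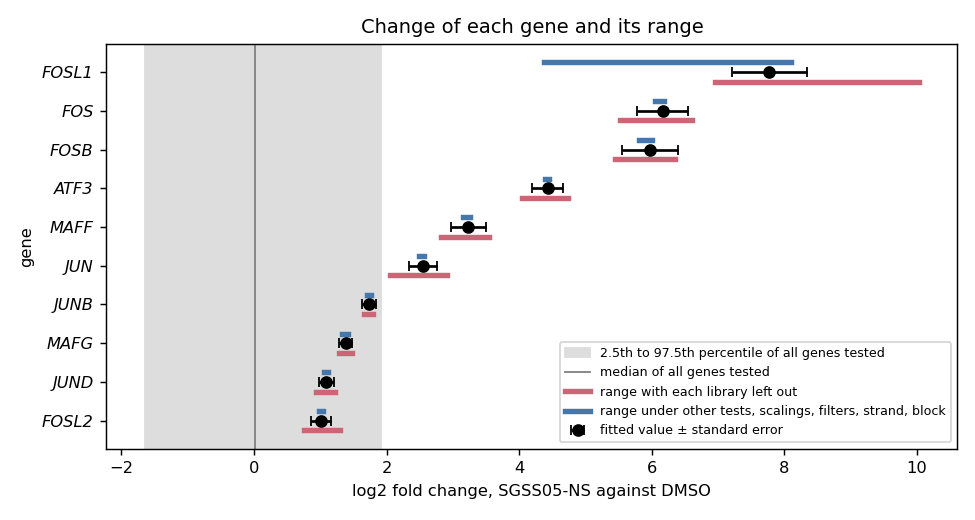
Log2 fold change of each of the 10 genes, SGSS05-NS against DMSO, with its standard error, the range when each library was left out and the range over the other alternatives, and a grey band for the central 95% of all genes tested (-1.65 to 1.91). JUN, ATF3, MAFF, FOS, FOSB and FOSL1 lie above the band, and FOSL2, JUND, MAFG and JUNB lie inside it.

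The treated replicates differed for several of the genes. The second treated library exceeded the first by more than 1.5 times in 5 of the 10 genes, namely FOS (2.13), FOSB (1.87), JUN (1.82), MAFF (1.65) and ATF3 (1.62). Over all genes tested the median ratio was 1.01 and 5.16% of genes exceeded 1.5. FOSL1 (0.658), MAFG (0.880) and FOSL2 (0.970) were lower in the second library, and JUNB (1.03) and JUND (1.23) were between. The DMSO replicates also differed for some of the genes. There the second library over the first was 1.53 for MAFF, 1.47 for ATF3, 1.46 for FOSL2 and 1.26 for FOS. For JUN it was 1.06 and for FOSB 0.859. Leaving out either treated library kept every call, and the log2 fold change of FOS was 5.52 without the second and 6.60 without the first.

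**Figure D3:**
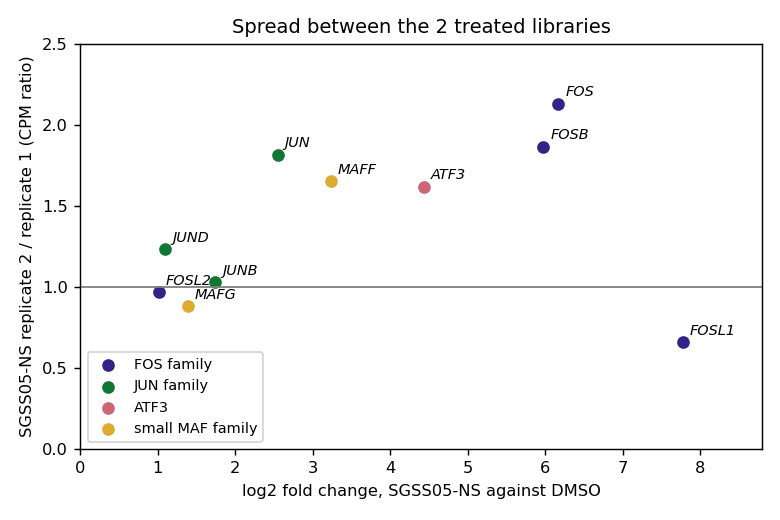
Ratio of the CPM of the second to the first SGSS05-NS library (vertical axis) against the log2 fold change (horizontal axis) for the 10 genes. FOS, FOSB, JUN, MAFF and ATF3 lie above 1.5, whereas FOSL1, which has the largest fitted change, lies at 0.658.

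Levels of different genes were compared as CPM per kb of annotated exon sequence. In DMSO the order was JUND (26.7), JUNB (11.2), MAFG (9.02), JUN (7.09), FOSL2 (3.34), ATF3 (0.972), MAFF (0.359), FOS (0.241), FOSB (0.0334) and FOSL1 (0.0106), and neighbours in this order did not overlap between replicates at any of the 9 steps. With SGSS05-NS the order was JUND (57.0), JUN (41.3), JUNB (37.4), MAFG (23.6), ATF3 (20.9), FOS (17.3), FOSL2 (6.73), MAFF (3.36), FOSL1 (3.01) and FOSB (2.15). Only 3 of the 9 steps were then free of overlap between replicates, JUNB over MAFG, FOS over FOSL2 and FOSL2 over MAFF. Lengths taken from the longest transcript instead placed ATF3 above JUNB and FOS above MAFG in the treated order.

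Within the FOS family the main transcript changed. The per-kb total of the 4 FOS genes was 2.99 and 4.27 in DMSO and 23.0 and 35.4 in SGSS05-NS, a ratio of means of 8.05. FOSL2 supplied 91.0% and 93.0% of this total in DMSO but 29.7% and 18.7% with SGSS05-NS, while FOS supplied 7.12% and 6.30% in DMSO and 48.0% and 66.6% with SGSS05-NS. FOSL1 went from 0.707% and 0% to 15.8% and 6.76%, and FOSB from 1.20% and 0.722% to 6.52% and 7.93%. The treated libraries thus shared the order of FOS over FOSL2 but differed in the size of the FOS share by more than the DMSO libraries did.

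The JUN family total rose less, from 45.6 and 44.5 to 117 and 154 per kb, a ratio of means of 3.01. JUND remained the largest part, at 59.2% and 59.5% in DMSO and 43.5% and 40.8% with SGSS05-NS. JUN rose from 15.1% and 16.4% to 25.04% and 34.6%, and JUNB stood at 25.7% and 24.1% before and 31.4% and 24.6% after, with overlapping groups. The ratio of the FOS total to the JUN total was 0.0655 and 0.0959 in DMSO and 0.196 and 0.229 with SGSS05-NS, so FOS transcripts stayed below JUN transcripts in every library. The total of MAFF and MAFG rose from 9.28 and 9.48 to 27.6 and 26.2 per kb. MAFG supplied 96.9% and 95.4% of it in DMSO and 90.8% and 84.1% with SGSS05-NS. MAFK, a small MAF gene outside the set, is not in this total. It stood at 0.651 and 0.373 per kb in DMSO and 0.958 and 0.970 with SGSS05-NS. MAFK was not called (log2 fold change 0.90, SE 0.26, edgeR adjusted p = 0.013). With 2 libraries a group the smallest p that an exact two-sided permutation test can give is 0.333, so no test was made of these shares and totals.

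**Figure D4:**
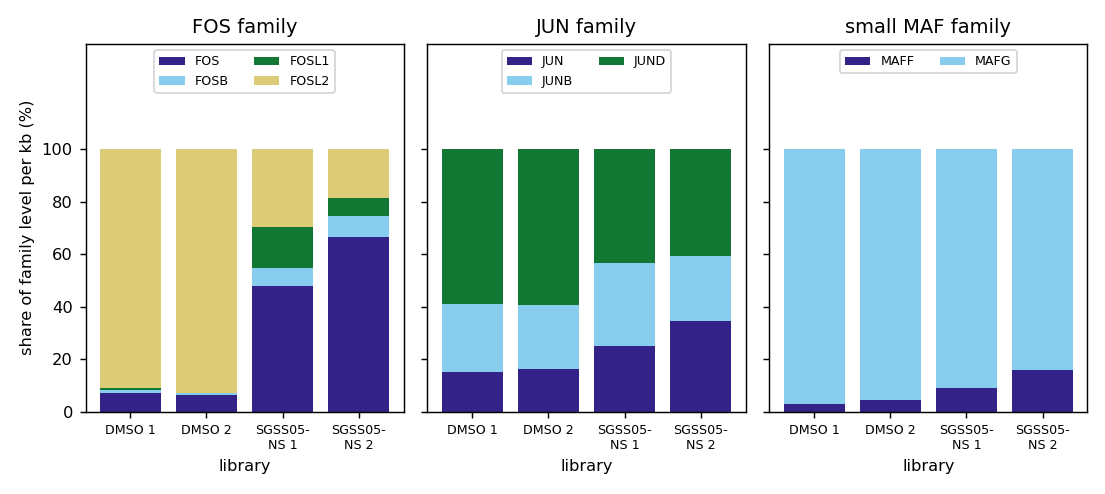
Share of each gene in the per-kb total of its family (percent, stacked bars, 1 bar per library). The small MAF panel holds MAFF and MAFG only. FOSL2 falls from over 90% of the FOS family in both DMSO libraries to under 30% in both treated libraries, and JUND and MAFG remain the largest parts of their families.

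Most of the 10 genes are short. The canonical transcripts of JUN, JUNB and JUND have a single exon, against 11.3% of genes with a known length. Of the 10 genes, 9 are shorter than the median gene tested, 25.7 kb, the exception being ATF3 at 55.444 kb. Of the genes that overlap them or start within 5000 bases on the other strand, SIRT7, which lies on the same strand as MAFG and overlaps it, rose by 1.06 on the log2 scale (SE 0.13, edgeR adjusted p = 4.9e-05). MILIP, which starts 94 bases from MAFG on the other strand, was not called at -0.56 (SE 0.18, edgeR adjusted p = 0.023). ERCC1 (0.01), which overlaps FOSB on the other strand, and PLA2G6 (0.45), which overlaps MAFF on the other strand, were not called either. A gene without a symbol that overlaps FOSL2 on the same strand, ENSG00000270640, had 1 count in each DMSO library and 10 and 12 in the treated libraries and was not called.

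Genes of the AP-1 pathway were followed through lists, which were also written with earlier results of these data known. Of 39 other bZIP genes that can pair with or resemble AP-1 factors, 31 were tested, 12 rose, 3 fell and 16 were not called, with a median log2 fold change of 0.67. Over all genes tested 6.37% were called higher and 8.14% lower. DDIT3, the stress factor CHOP, went from 2.75 and 2.82 CPM to 58.6 and 77.7 CPM, a log2 fold change of 4.61 (SE 0.17, edgeR adjusted p = 5.2e-09). CEBPB, a C/EBP factor of inflammatory and stress responses, rose by 2.60 (SE 0.18, edgeR adjusted p = 7.8e-07), and XBP1, a factor of the unfolded protein response, by 1.37 (SE 0.11, edgeR adjusted p = 1.8e-06). These 3 genes were those with the smallest p of the list.

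Genes for the kinases and serum response cofactors that act upstream of FOS and JUN were called about as often as genes in general, of which 14.5% were called in either direction. Of 31 MAP kinase cascade and scaffold genes, all tested, 1 rose, 3 fell and 27 were not called, with a median of 0.03. The kinases that fell were MAP2K6, which activates p38 (-1.87, SE 0.15, edgeR adjusted p = 3.1e-06), RPS6KA2, a kinase downstream of ERK (-1.16, SE 0.13, edgeR adjusted p = 2.9e-05), and MAP3K5, the stress kinase ASK1 (-1.29, SE 0.15, edgeR adjusted p = 3.5e-05). Of SRF and its cofactors, 6 genes in all, only MRTFB was called, at -0.67 (SE 0.11, edgeR adjusted p = 0.00054), and it was no longer called with library size scaling only (-0.63) or without the second treated library (-0.56). ELK4 (0.58, SE 0.12, edgeR adjusted p = 0.0017) and MRTFA (-0.70, SE 0.16, edgeR adjusted p = 0.004) were not called. Both were called with the likelihood ratio test, with the replicate block, without the filter on low counts, at an adjusted p under 0.05 and without DMSO replicate 2 (0.71 and -0.90), and ELK4 also with DESeq2 and without the second treated library (0.64).

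Of 14 genes that act on the stability of AP-1 transcripts or proteins, 3 rose, 2 fell and 9 were not called, with a median of 0.10. The shares over all genes tested were 6.37% called higher and 8.14% called lower. ELAVL4, a neuronal protein that binds and stabilizes AU-rich transcripts, went from 420 and 387 CPM to 190 and 172 CPM (log2 fold change -1.16, SE 0.10, edgeR adjusted p = 4.2e-06). ELAVL2, of the same family, fell by 1.17 on the log2 scale (SE 0.11, edgeR adjusted p = 6.1e-06), and FBXW7, part of a ubiquitin ligase that acts on JUN, rose by 0.75 (SE 0.09, edgeR adjusted p = 6.7e-05).

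Of 28 textbook AP-1 target genes, 16 were tested, with a median of 0.61. Among these 6 rose, against 6.37% of all genes tested, and 10 were not called. Of the 12 not tested, 6 had no count in any library. HBEGF, an EGF receptor ligand, went from 3.19 and 3.85 CPM to 18.0 and 23.2 CPM (log2 fold change 2.55, SE 0.18, edgeR adjusted p = 8e-07). LIF, a cytokine, went from 0.279 and 0.2996 CPM to 4.42 and 2.93 CPM (log2 fold change 3.64, SE 0.36, edgeR adjusted p = 1.2e-05). Of 24 other immediate early genes, 21 were tested. Among these 18 rose, against 6.37% of all genes tested, and 3 were not called. Their median was 2.49, and the median of the 10 AP-1 genes was 2.89. The difference between the immediate early genes and the 10 AP-1 genes was not tested.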

How the data were processed

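RNA-seq libraries of SY5Y cells (2 DMSO and 2 SGSS05-NS) were compared. Per the labels and the study's methods, the authors used Trimmomatic 0.30 for trimming and STAR 2.4.2a for alignment to hg19, counted fragments per GENCODE gene and tested with edgeR 3.10.5. The deposited values are raw counts per gene, once over both strands together and once for either strand alone. The reverse-strand counts were used, because only 4.64% to 5.05% of stranded fragments lay on the forward strand. The labels name a TruSeq RNA kit and the methods a stranded total RNA protocol. The methods describe independent replicates.

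Genes were named from a GENCODE annotation on GRCh37, of a later release than that of the counts. It gave a symbol to 55538 of 57820 rows. Exon numbers are those of the canonical transcript of each gene. Counts were filtered with filterByExpr, scaled by TMM and tested with the quasi-likelihood test of edgeR 4.0.16 in R 4.3.3. CPM use TMM-scaled library sizes. The 10 genes and all lists were chosen with earlier results of these data known. All 10 were named, plus the 3 genes with the smallest p of each list (only counts for the immediate early list) and KMT5A, except that 1 gene of the AP-1 target list is not reported here. Alternatives were the likelihood ratio test, DESeq2 1.42.0, limma 3.58.1 voom, other scalings and filters, both strands together, a threshold of 0.05, the replicate block and leaving out each library. The test was checked on simulated counts. Intervals cover counting error only. Markers were used to check the cell type. Replicates of each group differed by more than counting noise.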

Additional observations from a re-analysis of the deposited data

How the results depend on the processing

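All 10 AP-1 genes stayed higher and past the threshold in all 138 values over the alternatives. The largest edgeR adjusted p was 0.00047, for FOSL2 with library size only. The threshold of 0.05 reuses the main fit, so no call could be lost under it. FOSB and FOSL1 were not tested when at least 10 counts were required in every library, which left 8 genes, all called. Of 222 values for the 16 other genes taken by the naming rule, 207 kept their call, 3 lost it (MRTFB and KMT5A), the rest gained one (ELK4 and MRTFA), and none changed direction. The log2 fold change of FOSL1 was the least stable, at 10.03 without DMSO replicate 1, which holds its only control count, and 6.96 without DMSO replicate 2. Counts over all genes moved more. From 2390 called (1049 higher, 1341 lower) they went to 4289 (2022, 2267) with the likelihood ratio test, 4604 (2034, 2570) without the filter on low counts, and 7631 (3728, 3903) at an adjusted p under 0.05. MAP kinase genes called, 4, became 9, 10 and 14 under these settings, and SRF genes called, 1, became 3, 3 and 4. The turnover list went from 5 to 9 and the AP-1 target list from 6 to 11 at 0.05. With at least 10 counts in every library the target list went to 3 and the immediate early list from 18 to 12. SRF genes called were 2 with DESeq2 and 0 with library size only. Leaving out each library gave 2359 to 2838 genes in all, 4 to 5 MAP kinase genes, 5 to 7 turnover genes and 1 to 3 SRF genes, with 3 without DMSO replicate 2. Leaving out a library assumes that the lone library varies like the other group. The cause of these movements was not tested.

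Deviations of same-numbered libraries correlated at 0.0605 over 16468 genes. With only 2 pairs this value cannot decide whether replicate numbers pair the samples. With the replicate block 3766 genes were called (1759 higher), with 7 MAP kinase and 3 SRF genes, and all 10 AP-1 genes were called. Lengths from the longest transcript moved the DMSO family shares to 9.23% for FOS, 89.1% for FOSL2, 17.2% for JUN, 58.3% for JUND, 6.15% for MAFF and 93.9% for MAFG, and the treated shares to 19.1% for MAFF and 80.9% for MAFG. With 2 libraries a group, FOSB and FOSL1, with fewer than 10 DMSO counts, are known only as large changes of uncertain size.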
